A study of Mus musculus with 51 samples.

Results

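The limb buds of E10.5 mouse embryos were compared with the whole embryo of the same stage, first with forelimb and hindlimb averaged and then with each alone. The comparison used 11 of the 51 arrays of a time course of early limb development: 5 of forelimb and 4 of hindlimb, together the limb group of 9, and 2 of whole embryo. Every array was hybridised with total RNA of 1 FVB embryo at E10.5, the forelimbs, the hindlimbs or an embryo left intact, after 2 cycles of amplification. The limb replicates came from 1 litter, the labels name no transgene or treatment, and RNA was not pooled. A whole embryo at this stage still has its limb buds, so that the limb was set against a mixture that contains it. In such bulk RNA fewer cells of a type and less RNA per cell cannot be told apart.

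At E10.5 the limb bud is a core of proliferating mesenchyme, grown out from the lateral plate, under a jacket of ectoderm. The apical ectodermal ridge at its rim secretes FGFs that keep the distal mesenchyme growing, a posterior group of cells secretes SHH, and WNT signals from the dorsal ectoderm set the dorsal side. Muscle precursors, endothelial cells and nerves enter from the trunk, and cartilage is only beginning to condense. The embryo around it has a neural tube, a beating heart, somites, branchial arches and a liver bud.

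Values are log2 signals of a gene, averaged over its probe sets, and a fold change is the limb mean minus the whole-embryo mean on this scale, with the 2 limbs weighted equally. A gene was called where the fold was 2 or greater with a Benjamini-Hochberg adjusted p under 0.001 from limma over all 18194 genes, and up-regulated and down-regulated are used only of called genes. The limb and embryo arrays at E10.5 differ in more than tissue. The bacterial spike Dap read 3.20 to 3.59 on the 9 limb arrays, against 10.84 to 11.07 on both whole-embryo arrays. For Gapdh the signal at the 3′ end minus that at the 5′ end was -0.04 to 0.16 on limb arrays and 2.56 to 2.63 on whole-embryo arrays. The interquartile range of all probe sets was 4.07 to 4.34 on limb arrays and 3.58 to 3.69 on whole-embryo arrays. Array set and tissue cannot be told apart in any E10.5 value of limb against whole embryo below. The E9.5 forelimb and whole embryo, with 3 and 2 arrays, lie closer on these measures: Dap read 12.80 to 13.29 in forelimb and 11.61 to 11.74 in whole embryo, and the Gapdh difference was 1.48 to 1.73 in forelimb and 2.03 to 2.85 in whole embryo. Their fold change is therefore given beside the E10.5 values as context, with no test of the difference between stages.

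Replicates correlated at 0.9947 to 0.9966 in forelimb, 0.9917 to 0.9961 in hindlimb and 0.9929 in whole embryo over genes. A pair of limb arrays stood apart. Hindlimb replicate 3 exceeded all other hindlimb arrays by more than 1 log2 unit in 73 genes, of which 63 were down-regulated in limb, and the widest gap was 5.02 at Sox2. Forelimb replicate 4 did so over the other forelimb arrays in 21 genes, of which 13 were down-regulated in limb, led by Actc1 at 3.20. No other limb array did so in more than 3 genes. Without both arrays 1809 genes were up-regulated and 633 down-regulated, against 1809 and 607 with them. Of these, 1780 and 599 were called in both fits, and no called gene turned its sign.

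Over the average of both limbs 1809 genes were up-regulated (9.94% of those tested) and 607 were down-regulated (3.34%). Each count of a gene list below is to be read against these shares. Small counts, such as 2 of 16 or 2 of 17 genes up-regulated, lie near the first of them. All 9 limb arrays lay above both whole-embryo arrays in 1801 of the 1809, and below both in 595 of the 607. Over all tested genes, called or not, the arrays were separated upward in 31.7% and downward in 19.3%. Forelimb alone had 2534 called genes (13.9%), 1908 of them up-regulated, and hindlimb alone had 2398 (13.2%), 1778 of them up-regulated. The comparisons of forelimb and of hindlimb share their whole-embryo arrays. The median fold change of all genes was 0.03. The balance of the calls depended on the scale of the arrays: 74.9% of called genes were up-regulated in the deposited values, 57.0% after quantile normalization (1158 up and 874 down) and 65.8% when each gene was represented by its brightest probe set (1699 up and 883 down).

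**Figure D1:**
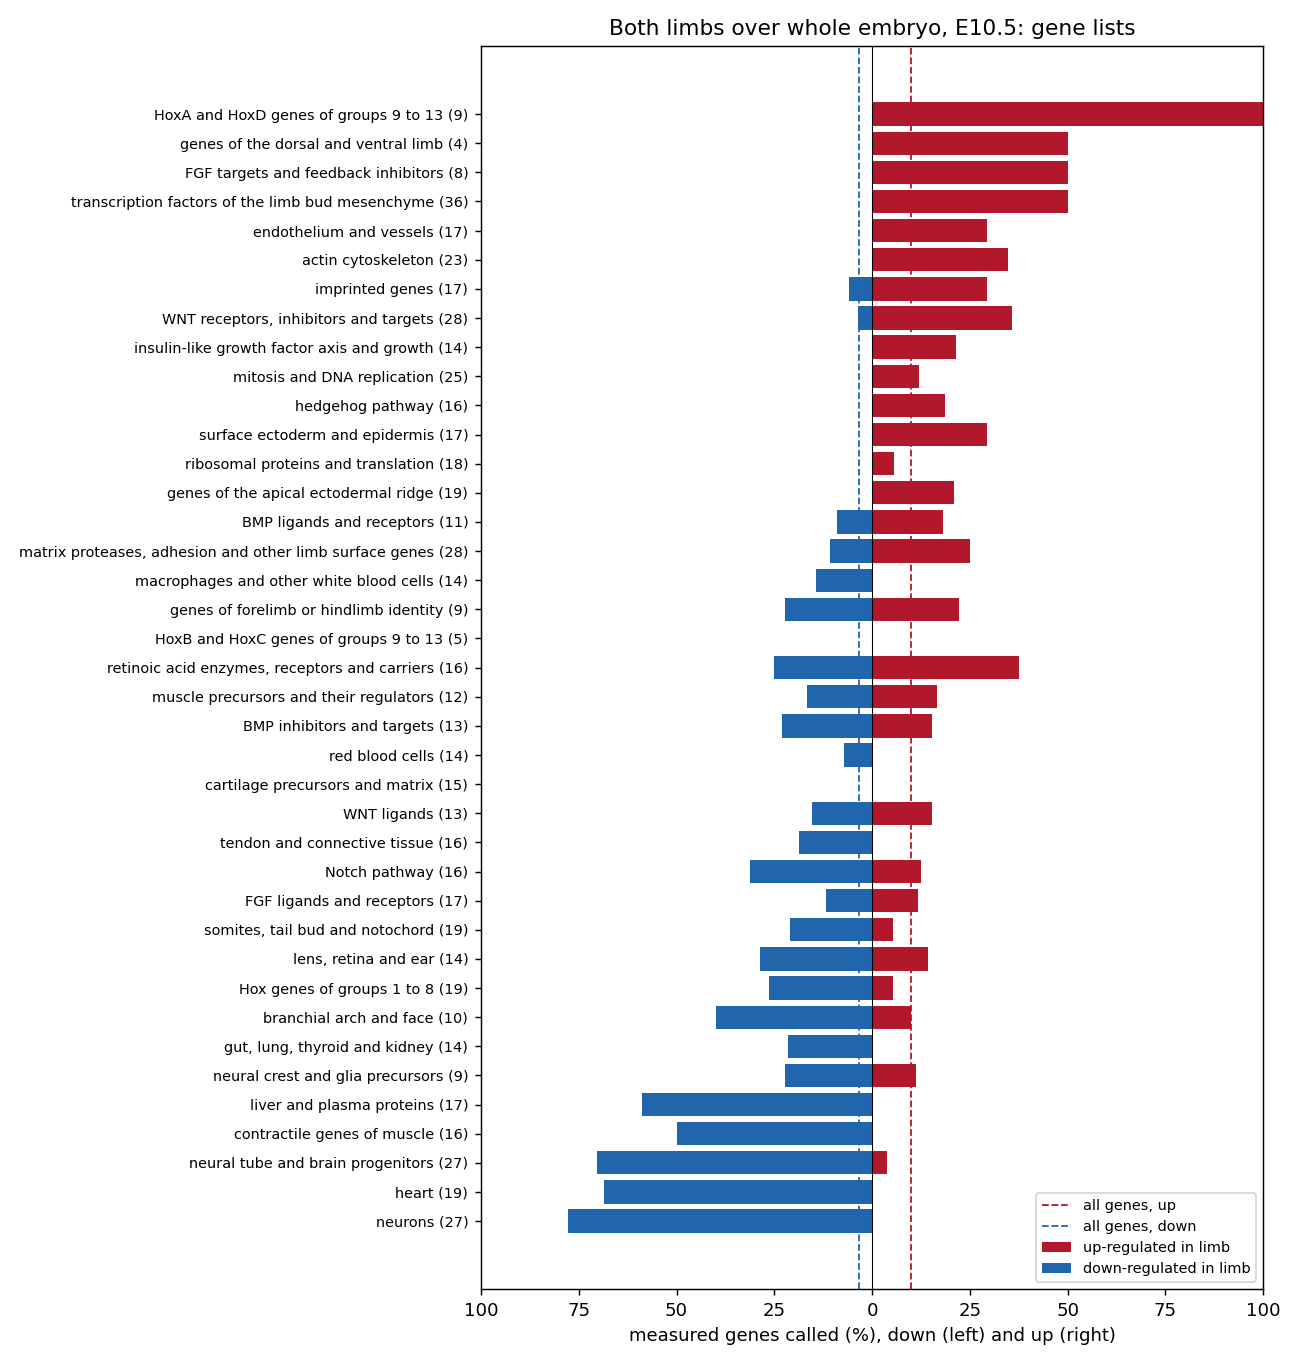
Percent of the measured genes of each of 39 gene lists called in the average of both limbs over whole embryo at E10.5. Up-regulated genes lie to the right and down-regulated genes to the left, with the number of measured genes in brackets. Dashed lines mark the share of all genes, 9.94% up and 3.34% down. All 9 posterior HoxA and HoxD genes lie on the right, and the lists of neurons, neural progenitors, heart, liver and contractile genes lie furthest on the left.

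Of 9012 genes with 2 or more probe sets, 142 (1.58%) had every probe set up-regulated in each limb and 44 (0.488%) had every probe set down-regulated. The 15 highest of the agreeing genes ran from 2.96 to 4.80. They included the limb transcription factors Tbx15, Shox2, Lhx9, Hoxd13 and Etv5, but also genes active in most cells, such as Cap1, which binds actin monomers, the deubiquitinase Otub1, the chromatin factors Supt16 and Chd4, and Atic, an enzyme of purine synthesis. Cap1 read 10.53 at the lowest, 10.75 at the median and 10.85 at the highest on limb arrays, against 5.79 and 6.11 in whole embryo. No limb array came near the embryo, and the fold change was 4.80 ± 0.17 (SE, adjusted p = 1.17e-25). At E9.5 it was 0.22 (adjusted p = 0.47).

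The E9.5 values of the 15 ran from -0.01 to 3.88. At E9.5 the fold change was 0.26 for Csrp1, a LIM protein of the cytoskeleton, 0.05 for Supt16, 0.27 for Atic, 0.45 for Ercc6l, a helicase of the mitotic chromosome, 0.77 for Chd4, 0.998 for Otub1 and 1.17 for Rab4a, a GTPase of endosomes, none of them called. Tbx15 had 1.59, Shox2 1.96, Lhx9 3.88, Etv5 1.45, the chemokine Cxcl14 1.27 and Capn6, an inactive calpain that binds microtubules, 2.44, all up-regulated at E9.5 too. Hoxd13, the last HoxD gene to come on in the limb, had -0.01. Of all 1809 up-regulated genes, 208 were also up-regulated at E9.5, where 2.08% of all genes were, and 1001 lay within 0.5 of 0. Of the 607 down-regulated genes, 212 were also down-regulated at E9.5, where 1.61% of all genes were, and 197 lay within 0.5 of 0. On the gene lists used here 47 of 114 up-regulated genes (41.2%) were called the same way at E9.5. Of the down-regulated genes on these lists, 73 of 124 (58.9%) were. The lists and their members were chosen with earlier results of these data known. Their shares, higher than those of all called genes, are therefore no independent support for the E10.5 calls.

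**Figure D2:**
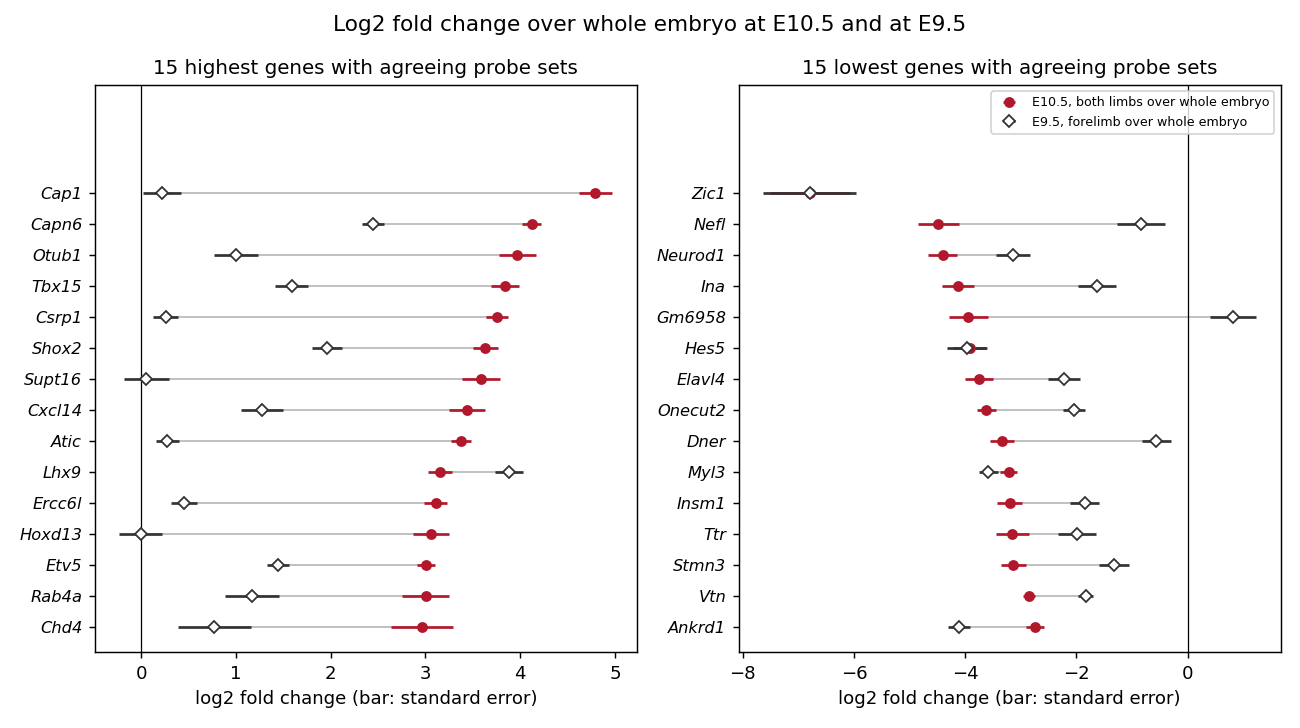
Log2 fold change of both limbs over whole embryo at E10.5 (filled circles) and of forelimb over whole embryo at E9.5 (open diamonds) for the 15 highest and the 15 lowest genes whose probe sets all agree, with bars for the standard error. Cap1, Csrp1, Supt16, Atic and Hoxd13 lie near 0 at E9.5, whereas Lhx9, Zic1, Hes5, Myl3 and Ankrd1 lie as far from 0 at E9.5 as at E10.5 or nearly so.

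Genes with a single probe set filled most of the 10 highest fold changes of the comparison. The highest was AI506816, an expressed sequence with 1 probe set and no described function, at 9.73, 9.91 and 10.38 (lowest, median and highest) on limb arrays, against 4.48 and 4.27 in whole embryo. Its fold change of 5.60 ± 0.09 (adjusted p = 7.37e-40) stood beside 0.35 at E9.5, which was not called. Pfn1, an actin-binding profilin, had 4.63, Ubl7, a ubiquitin-like protein, 4.46, and Smn1, which assembles splicing complexes, 4.32, with 2.53, 1.04 and 1.86 at E9.5, where Ubl7 was not called. Nnat, an imprinted gene of a small membrane protein, had 4.66, and 1.85 at E9.5. Cap1, Capn6, Hoxd11, Hoxd12 and Fgf8 completed the 10.

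Of 36 measured transcription factors of the limb bud mesenchyme, 18 were up-regulated and none was down-regulated, with a median fold change of 1.05. The mean level of the list was 7.73 to 8.22 on limb arrays, against 6.78 and 7.004 in whole embryo. Prrx1, a homeobox gene that marks limb mesenchyme, read 8.91, 9.16 and 9.40 (lowest, median and highest) on limb arrays and 6.46 and 6.57 in whole embryo. The groups did not overlap, and the fold change was 2.66 ± 0.09 (adjusted p = 7.11e-27). Its 6 probe sets spread from -0.01 to 5.83, with 5 of them up-regulated. Shox2, which controls growth of the proximal limb, read 9.498, 10.36 and 10.81 on limb arrays and 6.44 and 6.79 in whole embryo, a fold change of 3.63 ± 0.13 (adjusted p = 1.67e-25). Both probe sets of Shox2 agreed, at 3.22 and 4.05.

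Tbx15, a T-box gene of limb and trunk mesenchyme, had the highest fold change of the list, 3.84 ± 0.15, with 8.77, 9.65 and 10.26 on limb arrays and 5.50 and 5.99 in whole embryo. The odd-skipped gene Osr1 had 3.56, the LIM homeobox genes Lhx9 and Lhx2, which relay FGF signals in the distal mesenchyme, had 3.15 and 2.97, and Hand2, which sets the posterior limb ahead of SHH, had 2.59. Further up-regulated genes were Tbx18 (2.27), Osr2 (2.23), Prrx2 (2.14), Msx1 (2.01), Pbx2 (1.54) and Twist1 (1.52). Sall1, Twist2, Zfhx4, Tbx3 and Irx3 passed with fold changes of 1.12 to 1.24. Twist2, Zfhx4 and Irx3 were no longer called after quantile normalization, and the brightest probe set gave 0.25 for both Sall1 and Zfhx4, which was not called. Osr2 (0.47) and Tbx3 (0.73) were not called over the probe sets whose ID has no x, s or a suffix. Those suffixes mark sets that may match several transcripts. Not called were Tbx2 (0.60), Msx2 (0.37), Gli3 (0.67), the ridge factor Sp8 (-0.24), and Meis1 and Meis2, which mark the most proximal limb, at -0.81 and -0.67. Meis2 was down-regulated after quantile normalization, and Msx2 was up-regulated (1.63) by its brightest probe set. Tbx2 overlapped between the groups, with 6.77, 7.68 and 8.20 on limb arrays and 6.57 and 7.44 in whole embryo.

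**Figure D3:**
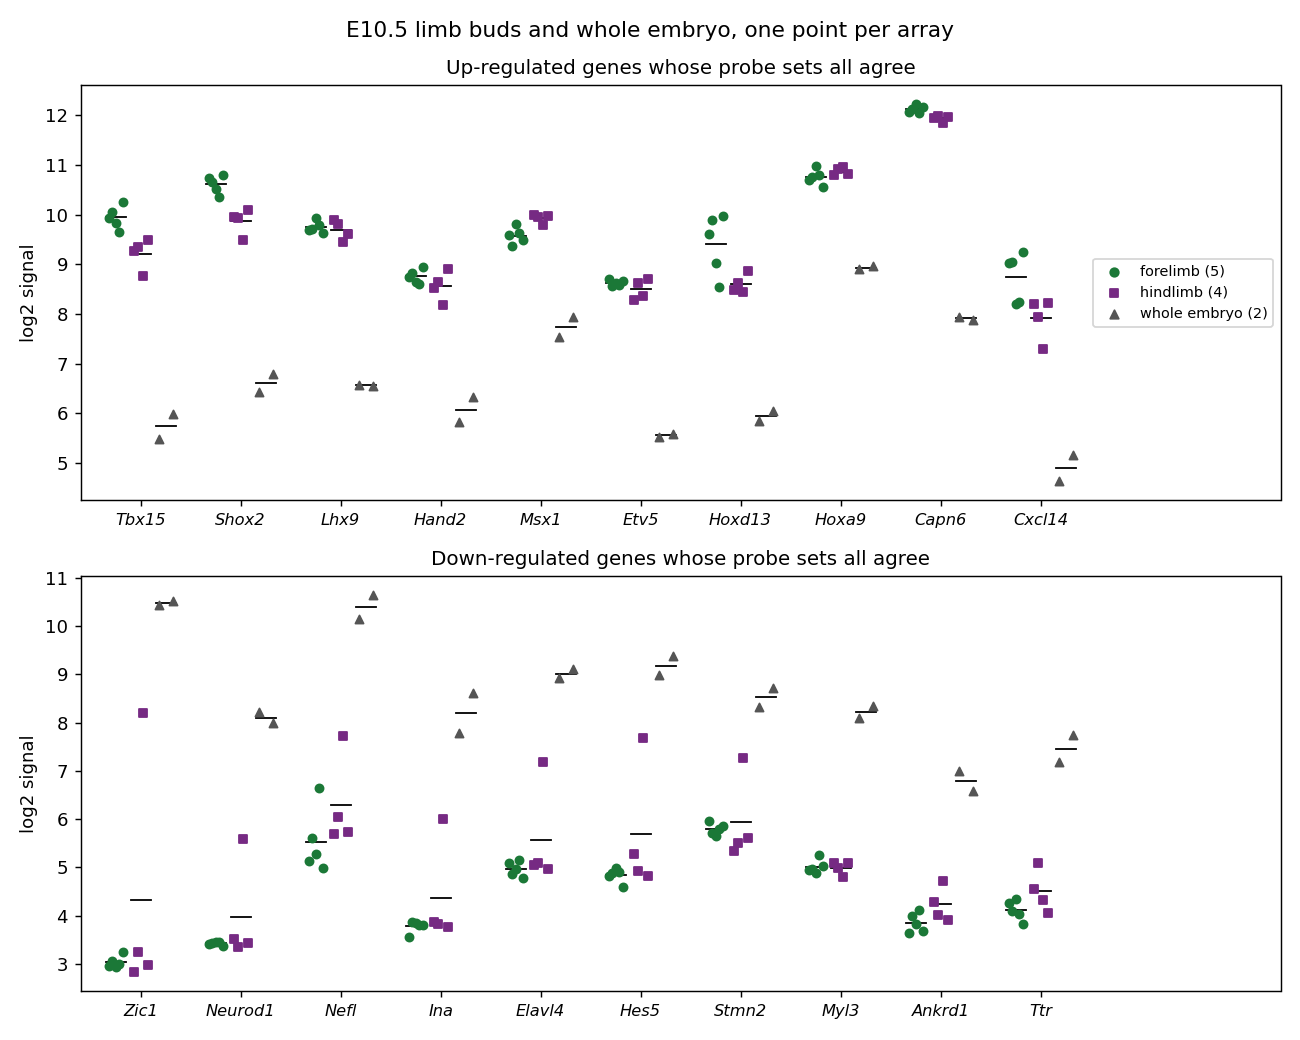
Log2 signal of 10 up-regulated and 10 down-regulated genes whose probe sets all agree, on each of the 5 forelimb (circles), 4 hindlimb (squares) and 2 whole-embryo (triangles) arrays of E10.5, with lines for group means. No gene has limb and whole-embryo points that overlap, and the hindlimb point that lies high in Zic1, Neurod1, Ina, Elavl4, Hes5 and Stmn2 is replicate 3 in each.

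Over the average of both limbs, the Hox genes split by cluster and by position within it. All 9 measured HoxA and HoxD genes of groups 9 to 13, which take part in limb patterning, were up-regulated in both limbs, with a median of 2.63. Hoxd11 read 8.40, 9.03 and 9.39 (lowest, median and highest) on limb arrays, against 4.42 and 4.54 in whole embryo, a fold change of 4.49 ± 0.13 (adjusted p = 3.13e-29). Hoxd12 followed with 4.12, Hoxa11 with 3.55, Hoxd13 with 3.06, Hoxd10 with 2.63, Hoxd9 with 2.19, Hoxa9 with 1.88 and Hoxa10 with 1.55. Hoxa13, which patterns the hand and foot, had the widest spread, with 5.15, 6.50 and 8.004 on limb arrays and 4.84 and 4.49 in whole embryo. The groups still did not overlap, and its fold change was 1.93 ± 0.31 (adjusted p = 1.06e-06). In a fit of the 11 arrays of E10.5 alone it was not called (adjusted p = 0.00601), and Hoxa10 was not called at 0.71 (adjusted p = 0.023) over the probe sets whose ID has no x, s or a suffix, the suffixes of sets that may match several transcripts.

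The posterior genes fell into those near the embryo at E9.5 and those already above it. Hoxd13, Hoxa13, Hoxd12, Hoxd11 and Hoxa10 had -0.01, -0.02, 0.28, 0.45 and 0.43 at E9.5, none of them called. Hoxd9, Hoxd10, Hoxa11 and Hoxa9 had 3.69, 2.11, 1.84 and 1.77 there, all up-regulated. Of 19 measured Hox genes of groups 1 to 8, only Hoxd8 (1.51) was up-regulated at E10.5 over the average of both limbs. Down-regulated over that average were 5: Hoxb1 (-2.61), Hoxb5 (-1.71), Hoxd3 (-1.63), Hoxc4 (-1.46) and Hoxa2 (-1.37). In forelimb alone 2 genes of this list were up-regulated and 3 down-regulated, and in hindlimb alone 1 and 5. Hoxb5 and Hoxc4 were higher in forelimb than in hindlimb, by 1.41 and 1.45. At E9.5 the same 19 genes gave 6 up-regulated, none down-regulated and a median of 0.99. Of the 5 genes down-regulated over the average at E10.5, 1 lay below 0 at E9.5. None of the 5 measured HoxB and HoxC genes of groups 9 to 13 was called over the average of both limbs. In hindlimb alone 3 of them were up-regulated, and in forelimb alone 1 was down-regulated. Hoxc10, Hoxc9 and Hoxb9 are described with the limb-type genes, since forelimb and hindlimb differed in them.

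Up-regulation reached 4 of 19 ridge genes, and none was down-regulated. Fgf8, the main ridge FGF, read 8.97, 9.22 and 9.69 (lowest, median and highest) on limb arrays, against 4.64 and 5.12 in whole embryo. This was the widest separation of the list, 4.40 ± 0.28 (adjusted p = 1.32e-17), beside 1.94 at E9.5. Bhlha9, a ridge transcription factor, had 2.64, Rspo4, a secreted enhancer of WNT signalling, 1.73, and Trp63, which specifies stratified ectoderm, 1.44. The other ridge FGFs Fgf4 (0.39), Fgf9 (0.26) and Fgf17 (0.41), as well as Dlx5 (0.26), Dlx6 (0.32) and Sp6 (0.78), were not called.

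The partner of the ridge in the mesenchyme and the readout of FGF signalling were also higher in limb. Fgf10, the mesenchymal ligand that maintains the ridge, read 5.77, 6.49 and 6.84 on limb arrays and 4.63 and 4.30 in whole embryo, a fold change of 1.98 ± 0.20 (adjusted p = 1.09e-11). Of 17 FGF ligands and receptors, 2 were up-regulated, Fgf10 and the mesenchymal receptor Fgfr1 (1.08), a share near the 9.94% of all genes. The 2 down-regulated were Fgf15 (-3.08), a ligand of the neural tube, and Fgfr3 (-1.14). Of 8 FGF targets and feedback inhibitors, 4 were up-regulated and none was down-regulated, with a median of 1.06. They were Etv5 (3.01), an ETS factor, the inhibitors Spry4 (1.47) and Spry2 (1.13), and Dusp6 (1.39), a phosphatase of ERK. Etv5 read 8.28, 8.62 and 8.71 on limb arrays and 5.53 and 5.59 in whole embryo. Etv4 missed the fold with 0.98, although its groups did not overlap, and was called by its brightest probe set (2.19). Fgfr1 and Spry2 were not called after quantile normalization, and Fgfr1 was -0.07 over the probe sets without such a suffix.

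Lmx1b, the LIM homeobox gene that makes the dorsal limb dorsal, and its divergent neighbour C130021I20Rik were both up-regulated. Lmx1b read 6.75, 6.95 and 7.28 (lowest, median and highest) on limb arrays and 5.34 and 5.75 in whole embryo, a fold change of 1.42 ± 0.14 (adjusted p = 4.68e-12). C130021I20Rik read 9.45, 9.67 and 10.03 on limb arrays and 5.80 and 5.90 in whole embryo, a fold change of 3.84 ± 0.11 (adjusted p = 2.62e-29). Neither overlapped, and the difference between forelimb and hindlimb was not called in either (adjusted p = 0.856 and 0.095). At E9.5 both were up-regulated, with 1.70 and 2.94. Wnt7a, the dorsal ectoderm ligand that induces Lmx1b, had -0.26, and En1 of the ventral ectoderm had 0.99, neither called at E10.5. En1 was up-regulated after quantile normalization.

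Since both genes were higher in limb and start back to back, the bases between their RefSeq starts (GRCm38.p6) are shown. The start of Lmx1b on the minus strand and that of C130021I20Rik on the plus strand lie 95 bases apart on chromosome 2. The 94 bases between them, plus strand, have a GC content of 63.8% and hold 1 CCAAT motif (CCAAT or ATTGG, both strands searched), in capitals. The 94 bases next to the start hold one in 18.0% of 32851 promoter windows of the mouse, so that the match is a description.
Lmx1b and C130021I20Rik, chr2:33641099-33641192: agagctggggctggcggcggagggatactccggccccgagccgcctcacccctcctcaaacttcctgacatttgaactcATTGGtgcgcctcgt

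Of 16 hedgehog pathway genes, 3 were up-regulated and none was down-regulated. Grem1, a BMP antagonist induced by SHH that links the posterior limb with the ridge, read 8.97, 9.28 and 9.57 on limb arrays, against 5.21 and 5.49 in whole embryo. Its fold change of 3.89 ± 0.33 (adjusted p = 1.11e-13) stood beside 0.63 at E9.5, not called. Disp1, which releases the ligand, had 1.45, and the coreceptor Gas1 had 1.07. Gas1 was not called after quantile normalization. Shh itself read 6.71, 7.53 and 7.69 on limb arrays and 6.71 and 6.80 in whole embryo. The groups overlapped, and the difference of 0.57 ± 0.18 (adjusted p = 0.00617) was not called. Its receptor and target Ptch1 had -0.43, or -1.14 and called with the brightest probe set, and the target Gli1 0.10. At E9.5 Shh and Gli1 were down-regulated, with -1.68 and -1.73.

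Among 11 BMP ligands and receptors, Bmp7 (2.41) and Bmp4 (2.16) were up-regulated and Bmp6 (-1.22) was down-regulated. Bmp4 read 10.71, 10.82 and 10.92 on limb arrays and 8.52 and 8.81 in whole embryo, with no overlap. Of 13 BMP inhibitors and targets, 2 were up-regulated, the targets Id1 (2.45) and Smad6 (1.51), and 3 were down-regulated. These were Id4 (-2.73), an inhibitor of basic helix-loop-helix factors known from neural progenitors, Bmper (-1.71) and Fst (-1.27), which bind ligands outside the cell. Id1 was 0.44 at E9.5, which was not called.

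Of 13 ligands of the WNT pathway, Wnt6 (1.16) of the ectoderm and Wnt5a (1.07) of the distal mesenchyme were up-regulated, and Wnt1 (-1.29) and Wnt3a (-1.19), ligands of the dorsal neural tube, were down-regulated. Neither Wnt6 nor Wnt5a was called after quantile normalization. Of 28 receptors, inhibitors and targets, 10 were up-regulated and 1 was down-regulated, Fzd5 (-1.61), with a median of 0.63. The secreted inhibitors Wif1 (2.63) and Frzb (2.57), β-catenin itself, Ctnnb1 (2.23), and its nuclear partner Lef1 (2.12) led the list. Lef1 read 8.39, 8.63 and 8.92 (lowest, median and highest) on limb arrays and 6.46 and 6.62 in whole embryo, and was 2.03 at E9.5. Ctnnb1 was 0.49 at E9.5, and its 3 probe sets spread from 0.16 to 3.99 at E10.5, with the brightest at 0.16. Lef1 missed the fold by its brightest probe set (0.97).

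Of 16 retinoic acid genes 6 were up-regulated, 4 were down-regulated and 6 were not called. Those up-regulated were the receptors Rarg (2.95), Rarb (2.38), Rara (1.12), the vitamin A importer Stra6 (1.81), Cyp26b1 (2.68), which degrades retinoic acid in the distal limb, and the binding protein Crabp1 (1.05). The synthesising enzymes Aldh1a1 (-3.62), Aldh1a2 (-1.76) and Aldh1a3 (-1.20) and the clearing enzyme of the tail bud, Cyp26a1 (-1.88), were down-regulated. Rarg read 8.25, 9.03 and 9.38 on limb arrays and 5.76 and 6.16 in whole embryo. Aldh1a1 read 2.87, 3.24 and 3.49 on limb arrays and 6.93 and 6.69 in whole embryo. Both separated the groups without overlap, and both probe sets of Rarg agreed. Rara and Crabp1 were not called after quantile normalization, nor was Crabp1 without the 2 limb arrays that stood apart (1.00).

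Of 16 Notch genes 2 were up-regulated, the ligand Jag1 (1.07) and the target Hes1 (1.02), 5 were down-regulated and 9 were not called. The down-regulated genes were the target Hes5 (-3.92) and the ligands Dll3 (-3.41) and Dll1 (-2.63) of neural tube and somites, Mfng (-1.58) and Hey2 (-1.48). Neither Jag1 nor Hes1 was called after quantile normalization. Hes5 read 4.59, 4.91 and 7.69 on limb arrays and 8.99 and 9.37 in whole embryo, and the highest of these limb values was hindlimb replicate 3. The fold change was -4.26 without the 2 arrays.

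The 3 lowest fold changes of the comparison were those of the neural genes Zic1, Fabp7 and Sox2. Of 27 neural tube and brain progenitor genes, 19 were down-regulated and 1 was up-regulated, with a median of -1.85. Of 27 neuron genes, 21 were down-regulated and none was up-regulated, with a median of -2.35. At E9.5 the neuron list gave 12 down-regulated genes and 1 up-regulated, and all 21 lay below 0. Zic1, a zinc finger gene of the dorsal neural tube, read 2.83, 3.00 and 8.20 on limb arrays, against 10.43 and 10.51 in whole embryo. The 8.20 was hindlimb replicate 3, and the next limb array read 3.25. The fold change was -6.79 ± 0.71 (adjusted p = 4.08e-11), and -7.43 without the 2 arrays that stood apart. Sox2, a factor of neural stem cells, read 2.98, 3.55 and 9.04 on limb arrays, against 10.77 and 10.93 in whole embryo, again with hindlimb replicate 3 as the highest. Its fold change was -6.68 ± 0.62, and -7.44 without the 2 arrays. Fabp7, a lipid carrier of radial glia, had -6.69.

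**Figure D4:**
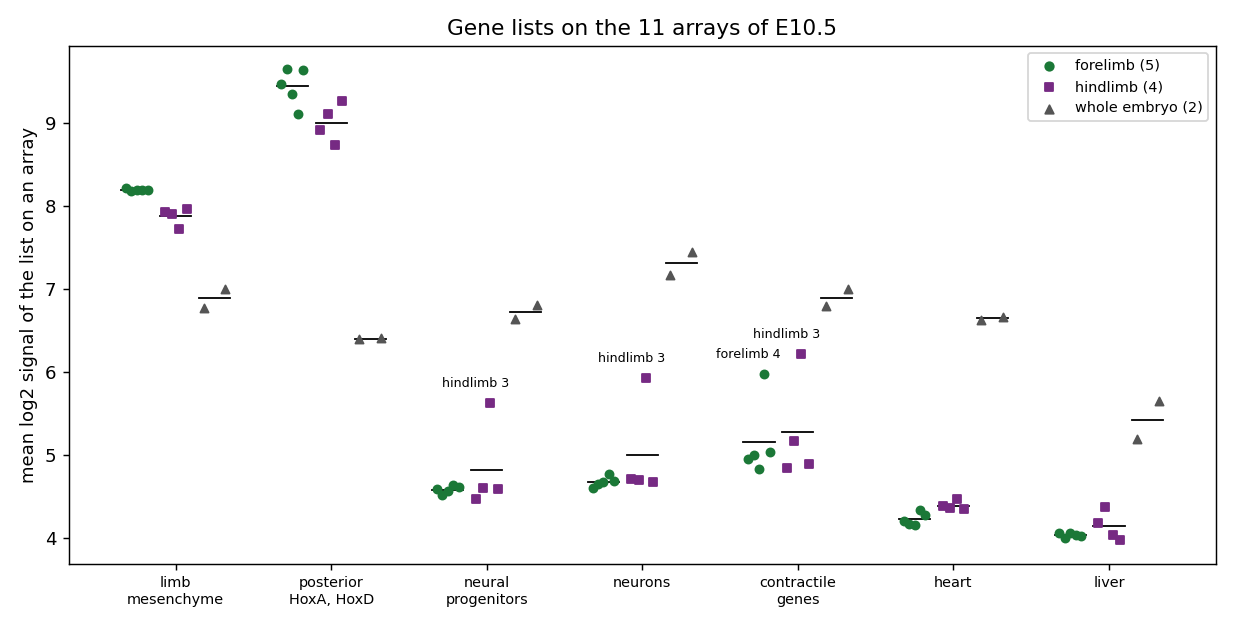
Mean log2 signal of 7 gene lists on each E10.5 array, 5 forelimb (circles), 4 hindlimb (squares) and 2 whole embryo (triangles), with lines for group means. Limb arrays lie above whole embryo in limb mesenchyme factors and posterior HoxA and HoxD genes and below it in the other lists, with hindlimb replicate 3 between the groups in neural progenitors and neurons and with forelimb replicate 4 in contractile genes.

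The mean level of the neuron list was 5.93 on hindlimb replicate 3, 4.60 to 4.77 on the other 8 limb arrays, and 7.18 and 7.44 in whole embryo. The progenitor list gave 5.62 on that array, 4.47 to 4.63 on the other limb arrays, and 6.64 and 6.81 in whole embryo. The array thus lay between the groups in both lists. Without it and forelimb replicate 4, the neuron list kept 21 down-regulated genes at a median of -2.61, and the progenitor list 19 at -1.85.

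The neuron genes covered commitment and the mature cell. Neurog2 (-4.67), Neurod1 (-4.40), Nhlh2 (-5.19) and Insm1 (-3.20) drive precursors into neurons, and the neurofilament genes Nefl (-4.49), Nefm (-4.79) and Ina (-4.13), the tubulin Tubb3 (-3.52) and the RNA-binding protein Elavl4 (-3.75) mark their axons and cell bodies. Neurod1 read 3.35, 3.44 and 5.59 (lowest, median and highest) on limb arrays and 8.21 and 7.99 in whole embryo, a fold change of -4.40 ± 0.26 (adjusted p = 1.43e-18). Its 2 probe sets gave -4.41 and -4.40, and the gene -4.68 without the 2 arrays. Onecut2 (-3.62), Dner (-3.34) and Stmn3 (-3.13) also had agreeing probe sets, and Dner was -0.56 at E9.5, where it was not called.

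Genes of brain and of spinal cord both lay below the embryo. The forebrain and midbrain gene Otx2 had -4.17, with 2.80, 2.97 and 3.21 on limb arrays and 7.17 and 7.15 in whole embryo, and hindlimb replicate 3 was not high there. The spinal cord genes Dbx1, Olig3, Olig2 and Nkx2-2 had -4.48, -2.82, -2.31 and -1.85. Pax6 had -1.01, and its 5 probe sets ran from -3.76 to 0.18. Limb and embryo overlapped in Pax6, since hindlimb replicate 3 read 5.59, and the fold change was -1.21 without the 2 arrays. Zic2, a relative of Zic1, was the gene up-regulated in this list, at 1.42. It read 6.50, 7.33 and 7.71 on limb arrays and 5.88 and 5.78 in whole embryo, and was -0.11 at E9.5. Of 9 neural crest genes 1 was up-regulated, 2 were down-regulated and 6 were not called, with fold changes from -1.63 to 1.70. The defining Sox10 (-0.65), Foxd3 (-0.92) and Erbb3 (-0.62) were not called, although Sox10 was by its brightest probe set (-1.50). Dct (-1.63) and Ednrb (-1.41), genes of pigment cell precursors, were down-regulated.

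Heart genes formed the second large group below the embryo. Of 19, 13 were down-regulated and none was up-regulated, with a median of -1.93, and all 13 were below 0 at E9.5 too. Their mean level was 4.15 to 4.47 on limb arrays, hindlimb replicate 3 included, against 6.63 and 6.67 in whole embryo. Myl7, the atrial myosin light chain, read 4.45, 4.75 and 5.36 on limb arrays and 9.62 and 9.79 in whole embryo, a fold change of -4.85 ± 0.16 (adjusted p = 3.03e-27) beside -5.34 at E9.5. Nppa (-4.59), an atrial hormone, Myh7 (-4.51), Myl2 (-4.50), Tnnt2 (-3.76), Myh6 (-3.30), Myl3 (-3.22) and Tnni3 (-2.88), proteins of the heart sarcomere, followed. Tnnt2 was 0.03 over its probe sets without such a suffix. The cardiac factor Nkx2-5 had -1.20, and Gata4 (-0.80) and Hand1 (-0.07) were not called. The brightest probe set of Gata4 gave -1.48, which was called.

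Contractile genes shared by heart and skeletal muscle showed the same direction with more spread. Of 16, 8 were down-regulated and none was up-regulated, with a median of -1.48. Actc1, the cardiac actin that the first skeletal muscle also uses, read 4.61, 5.66 and 10.30 on limb arrays, against 11.79 and 12.28 in whole embryo. The high limb values were hindlimb replicate 3 (10.30), forelimb replicate 4 (8.86) and hindlimb replicate 2 (7.73). The fold change was -5.39 ± 0.68 (adjusted p = 4.73e-09), and -6.26 without replicate 4 of forelimb and replicate 3 of hindlimb. In a fit of the 11 arrays alone Actc1 was not called (adjusted p = 0.00137), nor was Acta1 (adjusted p = 0.00297). The list averaged 6.22 on hindlimb replicate 3, 5.97 on forelimb replicate 4 and 4.83 to 5.17 on the other limb arrays, against 6.79 and 6.997 in whole embryo. Acta1, skeletal actin, overlapped between the groups, since hindlimb replicate 3 read 8.29 and whole embryo 8.22 and 8.54. Without the 2 arrays 9 genes of the list were down-regulated, at a median of -1.73.

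The promoters of Actc1 and Myl7 are shown because both genes lay far below the embryo and both hold a CArG box, CC and GG around 6 A or T, the motif of serum response factor, within the 250 bases before the RefSeq start (GRCm38.p6, minus strand). It stands in capitals and ends 37 bases before the start of Actc1 and 51 bases before that of Myl7. Of 32851 promoter windows of this length 482 (1.47%) hold one. All 21 down-regulated heart and contractile genes had a window, and 4 hold the motif: Acta1, Actc1, Myl3 and Myl7. Each match is a description, and nothing follows from it for the factor.
Actc1, chr2:114052876-114053125: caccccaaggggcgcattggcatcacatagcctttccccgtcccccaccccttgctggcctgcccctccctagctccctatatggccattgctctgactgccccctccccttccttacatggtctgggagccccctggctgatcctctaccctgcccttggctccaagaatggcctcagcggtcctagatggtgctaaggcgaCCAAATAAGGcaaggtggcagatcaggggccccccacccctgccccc
Myl7, chr11:5898783-5899032: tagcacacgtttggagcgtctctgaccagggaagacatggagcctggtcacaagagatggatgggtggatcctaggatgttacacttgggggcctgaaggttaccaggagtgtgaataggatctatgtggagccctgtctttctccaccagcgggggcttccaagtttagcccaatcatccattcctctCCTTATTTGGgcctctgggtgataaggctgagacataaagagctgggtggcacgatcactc

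Genes of the liver bud and of plasma proteins were down-regulated in 10 of 17 cases and up-regulated in none, with a median of -1.18. Ttr, a carrier of thyroid hormone made by liver and visceral endoderm, read 3.83, 4.26 and 5.09 (lowest, median and highest) on limb arrays, against 7.18 and 7.74 in whole embryo. Its 4 probe sets agreed, and the fold change was -3.15 ± 0.30 (adjusted p = 1.99e-12). Afp (-3.07), Ambp (-2.94), Alb (-2.23) and Vtn (-2.85), all secreted into plasma, lay below the embryo as well, and Apoa1 (-0.24) and the factor Hnf4a (-0.37) were not called, although Hnf4a was by its brightest probe set (-1.06). At E9.5 the list gave 2 down-regulated genes, and 7 of the 10 lay below 0. Alb was 0.69 there, which was not called.

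Other organs of the trunk and head gave smaller groups. Of 19 genes of somites, tail bud and notochord, 4 were down-regulated: Foxa1 (-4.01) and Foxa2 (-1.67) of floor plate and endoderm, Foxc2 (-2.23) of paraxial mesoderm and Pax1 (-1.08) of sclerotome. Meox2 (1.04), a gene of somites and limb muscle precursors, was up-regulated, with 1.59 in forelimb and 0.49 in hindlimb, and lost its call after quantile normalization. The somite and tail bud markers Tbx6 (-0.35), Mesp2 (-0.16) and Cdx2 (-0.37) were not called. Of 10 branchial arch and face genes, 4 were down-regulated, led by Lhx8 (-4.07) and Barx1 (-2.08), and Gsc (2.30), a homeobox gene of arch and limb mesenchyme, was up-regulated. Gsc overlapped between the groups, with 4.69, 6.94 and 7.56 on limb arrays and 4.08 and 4.75 in whole embryo. Of 14 genes of gut, lung, thyroid and kidney, Wt1 (-1.84), Lhx1 (-1.68) and Ret (-1.39) were down-regulated. Of 14 genes of lens, retina and ear, 4 were down-regulated, and Mab21l2 (2.53) and Mab21l1 (1.97) were up-regulated, with 0.28 and 0.06 at E9.5.

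Cell types that reach both the limb and the embryo differed less. Of 14 red blood cell genes only Gata1 (-1.37) was called. Embryonic globin Hba-x read 13.73, 13.90 and 14.09 on limb arrays and 12.65 and 13.13 in whole embryo, a difference of 1.00 that missed the fold. Of 14 macrophage genes Adgre1 (-1.39) and Laptm5 (-1.29) were down-regulated, and Csf1r (-0.24), C1qa (0.60), C1qb (0.33) and Tyrobp (-0.11) were not called. The mean level was 8.35 to 8.89 on limb arrays and 8.48 to 8.82 in whole embryo for red blood cells, and 5.22 to 5.69 on limb arrays and 5.34 to 5.45 in whole embryo for macrophages, so that the groups overlapped in both.

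Of 17 endothelial genes 5 were up-regulated and none was down-regulated. Pecam1, an adhesion molecule of vessels, had 3.15 ± 0.12 at E10.5, with 8.27, 8.44 and 8.53 on limb arrays and 5.56 and 4.99 in whole embryo, yet 0.09 at E9.5. Tie1 (1.66), Emcn (1.64), Plvap (1.10) and Ets1 (1.05) were the others, and the last pair was not called after quantile normalization. Ets1 was 0.04 by its brightest probe set. The defining receptors Kdr (-0.30) and Tek (-0.43) and the junction genes Cdh5 (0.97) and Cldn5 (0.26) were not called. Of 17 genes of surface ectoderm 5 were up-regulated and none was down-regulated. Basal keratins led, Krt5 with 2.86 ± 0.14 and Krt14 with 1.44. Krt5 read 7.98, 8.54 and 8.89 on limb arrays and 5.36 and 5.90 in whole embryo. The simple-epithelium genes Krt8 (-0.46), Krt18 (0.40), Cdh1 (0.36) and Epcam (-0.48) were not called.

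Of 12 muscle precursor genes 2 were up-regulated, 2 were down-regulated and 8 were not called. Met (2.41), the receptor that lets precursors leave the somite, and Lbx1 (1.97), which guides them into the limb, were up-regulated. Lbx1 read 7.30, 7.68 and 8.08 on limb arrays and 5.78 and 5.67 in whole embryo, and both of its probe sets agreed. Pax3 (0.08), which marks the precursors but also the dorsal neural tube, was not called, and Pax7 (-1.61) and the late regulator Myf6 (-1.57) were down-regulated. Myf6 overlapped between the groups through hindlimb replicate 3, at 5.35, against 5.30 and 5.76 in whole embryo. Its fold change was -1.85 without the 2 arrays. None of 15 cartilage genes was called over the average of both limbs, with a median of 0.06, but 2 were up-regulated in forelimb alone (median 0.34), 1 was up-regulated and 1 down-regulated in hindlimb alone (median -0.21), and 2 were higher in forelimb than in hindlimb. Sox9, the first cartilage factor, read 6.36, 7.14 and 7.61 on limb arrays and 6.73 and 7.08 in whole embryo, a difference of 0.06. Of 16 tendon and connective tissue genes 3 were down-regulated, Postn (-1.94), Lum (-1.81) and Dcn (-1.18), all matrix proteins of later connective tissue. In forelimb alone 3 genes of this list were up-regulated, in hindlimb alone none, and 4 were higher in forelimb than in hindlimb.

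Forelimb and hindlimb differed in few genes. Of all genes tested 76 (0.418%) were higher and 27 (0.148%) lower in forelimb than in hindlimb, in a contrast that does not use the whole-embryo arrays. Of the 76, 17 were up-regulated and 9 down-regulated over the average of both limbs, and of the 27, 8 and 6. In a fit of the 11 arrays of E10.5 alone, 40 and 9 genes passed.

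Tbx5, which starts the forelimb, read 8.98, 9.16, 8.86, 8.79 and 9.33 on forelimb arrays, 5.36, 5.11, 5.17 and 5.17 on hindlimb arrays, and 6.16 and 6.14 in whole embryo. Forelimb lay above the embryo by 2.87, hindlimb below it by less than the fold (-0.95), and the limbs differed by 3.82 ± 0.17 (adjusted p = 9.04e-22). Pitx1, which makes the hindlimb a hindlimb, read 4.74, 4.94, 4.47, 4.79 and 5.04 on forelimb arrays, 10.07, 10.38, 9.81 and 10.52 on hindlimb arrays, and 6.01 and 6.65 in whole embryo. It was down-regulated in forelimb (-1.53) and up-regulated in hindlimb (3.86), so that the average over both limbs, 1.17, described neither. Hoxc10 showed the same crossing, with -2.32 in forelimb and 2.73 in hindlimb. Its average over both limbs was 0.20. Tgfb2, a growth factor noticed after the values were seen, was the only other gene called in opposite directions, with 1.12 in forelimb and -1.23 in hindlimb.

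Tbx4, the hindlimb T-box gene, had 0.90 in forelimb and 3.83 in hindlimb, with 6.44 to 7.02 on forelimb arrays, 9.40 to 9.90 on hindlimb arrays, and 5.85 and 5.88 in whole embryo. Isl1, which acts ahead of the hindlimb and is also a gene of heart and motor neurons, was -4.01 in forelimb and -0.86 in hindlimb. Its levels were 5.58, 5.70, 4.93, 5.04 and 5.86 on forelimb arrays, 8.31, 8.71, 8.68 and 8.56 on hindlimb arrays, and 9.27 and 9.58 in whole embryo. Lin28a, an RNA-binding protein of early and immature cells, was 0.72 in forelimb and 3.90 in hindlimb, and called over both (2.31). That call was lost in the fit of the 11 arrays alone (adjusted p = 0.00159) and with the brightest probe set (1.28, adjusted p = 0.0152). Its forelimb arrays scattered, at 6.15, 5.73, 7.49, 7.92 and 5.57, below all 4 hindlimb arrays at 9.60, 9.82, 10.29 and 9.30, and on both sides of whole embryo at 5.88 and 5.84. The difference between the limbs was not called in the fit of the 11 arrays either (adjusted p = 0.00127). Among other Hox genes, Hoxc9 (-0.77 in forelimb and 1.19 in hindlimb) and Hoxb9 (-0.13 and 1.47) were lower in forelimb, whereas Hoxc5 (1.28 and -0.80) was higher in forelimb.

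Several members of the lists above differed between the limbs, some of them inside a shared direction. Tbx18 was up-regulated in forelimb by 3.06 and in hindlimb by 1.47, and the limbs differed by 1.58 ± 0.12 (adjusted p = 8.52e-13). Osr1 (4.08 and 3.03), Wif1 (3.39 and 1.87) and Cyp26b1 (3.28 and 2.08) were also higher in forelimb, and Rarb (1.84 and 2.93) was lower there. Aldh1a2, the main retinoic acid synthase of the trunk, was -2.85 in forelimb and -0.67 in hindlimb. It read 5.76, 5.89, 5.19, 7.89 and 6.05 on forelimb arrays, where the high value was replicate 4, against 7.92, 8.33, 8.96 and 8.16 on hindlimb arrays and 8.83 and 9.20 in whole embryo. Wnt2 (-2.16 and 0.02) had the same order, with forelimb replicate 4 again the highest of its group at 7.18. Without the 2 arrays that stood apart the limbs differed by -2.42 in Aldh1a2 and by -2.73 in Wnt2. Myf5, the first myogenic regulator, was 0.59 in forelimb and -1.52 in hindlimb, and the limbs differed by 2.12 ± 0.18 (adjusted p = 6.25e-12).

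**Figure D5:**
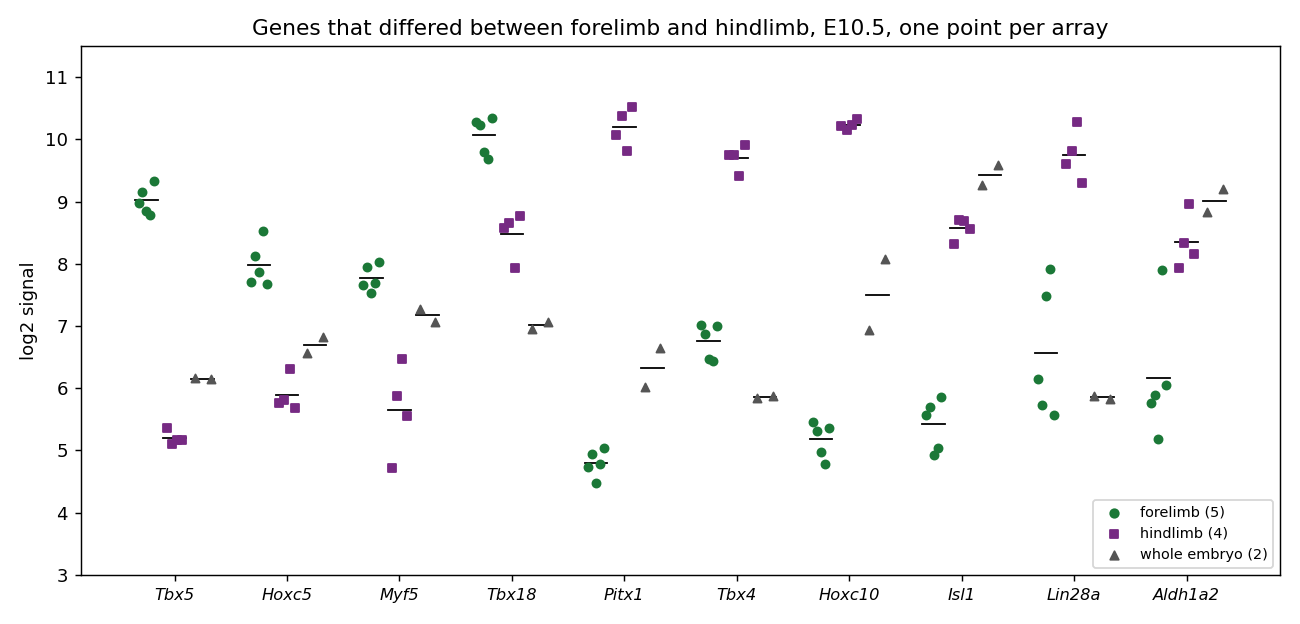
Log2 signal of 10 genes that differed between forelimb and hindlimb at E10.5 on each of 5 forelimb (circles), 4 hindlimb (squares) and 2 whole-embryo (triangles) arrays, with lines for group means. Tbx5, Hoxc5, Myf5 and Tbx18 are higher in forelimb, the others in hindlimb, and whole embryo lies between the limbs for Tbx5, Hoxc5, Myf5, Pitx1 and Hoxc10.

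Genes active in most cells were counted in groups too. Of 23 actin cytoskeleton genes 8 were up-regulated and none was down-regulated, Cap1 (4.80), Pfn1 (4.63), the RhoA activator Net1 (3.98), Csrp1 (3.75), Msn (2.40), Cfl1 (1.99), Tmsb10 (1.62) and Rdx (1.13). The brightest probe set gave -0.24 for Msn, -0.15 for Rdx and 0.26 for Cfl1, and the probe sets without an x, s or a suffix gave -0.73 for Tmsb10. Actb (0.71) and Actg1 (0.30), the actins themselves, were not called, and 1 gene of the list was up-regulated at E9.5. Of 17 imprinted genes 5 were up-regulated, Nnat (4.66), Grb10 (3.26), Peg10 (2.43), the growth factor Igf2 (2.42) and Peg3 (1.14), and Magel2 (-1.15) was down-regulated. Igf2 read 10.39, 10.998 and 11.48 (lowest, median and highest) on limb arrays and 8.37 and 8.70 in whole embryo. Both of its probe sets agreed, whereas those of Grb10 ran from -0.20, the brightest, to 6.44. Of 25 mitosis and replication genes 3 were up-regulated, Kif11 (1.76), Cenpe (1.37) and Kif20a (1.05), and of 18 genes of ribosome and translation 1, Eif4a1 (2.13), shares near or below the 9.94% of all genes. Cenpe and Kif20a were not called after quantile normalization, and the brightest probe set gave 0.83 for Kif11 and 0.565 for Cenpe, neither of which reached the fold. Of 28 genes of matrix, adhesion and guidance 7 were up-regulated and 3 down-regulated over the average of both limbs, against 12 and none in forelimb alone and 6 and 3 in hindlimb alone. Among them the ephrin receptor Epha4 (2.35) and the repulsive guidance molecule Sema3a (2.18) lay above the embryo, and the repellent Slit2 (-1.27) and the ephrin receptor Ephb1 (-1.23) below it. The brightest probe set of Epha4 gave -0.15. Of 14 growth and insulin-like growth factor genes 3 were up-regulated, Lin28a, described above, and the binding proteins Igfbp3 and Igfbp4 (1.14 each), which were not called after quantile normalization. The brightest probe set of Igfbp4 gave -0.02.

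Probe sets of a gene did not always move together. Of the up-regulated genes 13 had at least 1 probe set called down, and of the down-regulated genes 4 had at least 1 called up. Phf6, a chromatin protein, was 1.24 on average, from probe sets at -2.41, 0.76 and 5.36. Rps9, a ribosomal protein, was -1.87 on average, from probe sets at -5.90, -0.94 and 1.23, the last the brightest. Its limb arrays read 9.05, 9.26 and 9.39, against 10.96 and 11.29 in whole embryo, and at E9.5 the fold change was -0.02. Taf15, an RNA-binding factor, averaged 1.24 from -1.31 and 3.79. Each average hides a spread wider than its own fold change, and so does that of Mapk6, Ide and Ibtk. Gm6958, a gene without described function, had 2 agreeing probe sets and a fold change of -3.94, with 4.00, 4.32 and 4.55 on limb arrays and 7.54 and 8.98 in whole embryo, yet 0.81 at E9.5, not called.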

How the data were processed

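The arrays were Affymetrix whole-genome mouse chips hybridised with biotin-labelled RNA. The authors processed them with RMA (version not given in the sources used here) and corrected a blemish on 1 whole-embryo array of E12.5. The deposited table holds linear intensity values, not the log2 values that had been assumed, and the log2 was taken here. Of 45101 probe sets, 34958 had 1 gene symbol in the platform annotation, 932 had several and 9211 had no entry. They were averaged per gene into 18194 genes, of which 9012 had 2 or more probe sets.

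Groups followed the sample titles, which on 2 arrays outside E10.5 conflict with other labels. limma (version 3.58.1 in R 4.3.3, with statmod 1.5.0 for the replicate block) was fitted to all 51 arrays in 14 groups with 37 residual degrees of freedom, after tests on simulated data. According to the paper, each sample came from 1 embryo, and the replicates of a limb at a stage shared a litter. Whether forelimb and hindlimb arrays share embryos is not known. The spread behind the p-values was pooled over the replicates of all 14 groups. It is therefore not the spread between the E10.5 embryos alone. The number of arrays limits the precision. Forelimb minus whole embryo, hindlimb minus whole embryo, the average of both, forelimb minus hindlimb and the E9.5 forelimb minus whole embryo were tested.

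The genes named were the 15 highest and 15 lowest with agreeing probe sets and separated groups, the 10 highest and 10 lowest called, the 10 called genes whose probe sets disagreed most, and members of 39 gene lists (686 genes, 636 of them measured). The members and lists were chosen with earlier results of these data known. Sequences were read from RefSeq (GRCm38.p6), where 14453 of the 18194 genes matched a window. Alternatives covered the arrays in the fit, normalization, the summary of probe sets, the filter, threshold and weights, the replicate block and each array left out in turn.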

Additional observations from a re-analysis of the deposited data

Results flagged for a closer look

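Among 518 groups of forelimb or hindlimb arrays looked at for the genes named above, 45 held 1 array far from the others of its group, where chance alone flags about 1 in 20. Hindlimb replicate 3 accounted for 22 of them, forelimb replicate 4 for 8 and other arrays for 15. What these arrays share apart from the values below was not tested.

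Hindlimb replicate 3 stood above the other hindlimb arrays in genes of neural tube and neurons. It read 9.04 in Sox2, 8.20 in Zic1, 7.95 in Fabp7, 7.69 in Hes5, 7.27 in Stmn2, 7.18 in Elavl4, 7.15 in Dll3, 6.96 in Neurog2, 6.96 in Nhlh2, 6.002 in Ina, 5.85 in Dbx1, 5.77 in Olig3, 5.59 in Neurod1, 5.59 in Pax6 and 4.58 in Insm1. The nearest other hindlimb array read 4.01 in Sox2, 3.25 in Zic1 and 4.30 in Fabp7. The same array was high in the Hox genes Hoxa2 (6.36) and Hoxb1 (5.79), in skeletal actin Acta1 (8.29), in the sclerotome gene Pax1 (5.23) and in En1 (4.67). It was low in the mesenchyme gene Prrx2 (10.27) and the epithelial cadherin Cdh1 (7.61).

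Forelimb replicate 4 read 8.86 in Actc1, 7.18 in Wnt2, 6.09 in Wt1, a gene of coelomic lining and kidney, 6.39 in Nefm, 8.95 in Ets1 and 7.70 in Tek, each above the other forelimb arrays. It was low in Fgf17 (3.72) and Gm6958 (4.18).

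The other arrays gave smaller gaps. Forelimb replicate 1 stood apart in Barx1 (4.52), Igfbp4 (11.90) and Ina (3.57), replicate 2 in Twist1 (10.61), replicate 3 in Bmp7 (8.53), Fgf8 (9.22) and Tgfb2 (7.86), and replicate 5 in Sox10 (5.53) and Tubb3 (6.03). Hindlimb replicate 1 stood apart in Ercc6l (9.44), Fzd5 (4.84), Grb10 (10.75) and Igfbp3 (7.83), replicate 2 in Tmsb10 (10.49) and replicate 4 in Erbb3 (5.50).

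Forelimb and hindlimb differed from the embryo by unequal amounts in 27 of the genes named, by the contrast of forelimb minus hindlimb. Higher in forelimb were Tbx5 (3.82), Tgfb2 (2.36), Myf5 (2.12), Hoxc5 (2.08), Lum (1.62), Tbx18 (1.58), Wif1 (1.51), Hoxc4 (1.45), Hoxb5 (1.41), Zfhx4 (1.27), Bmper (1.20), Cyp26b1 (1.20), Gsc (1.16), Meox2 (1.10), Osr2 (1.05), Osr1 (1.04) and Fgf9 (1.04). Lower in forelimb were Pitx1 (-5.40), Hoxc10 (-5.05), Lin28a (-3.18), Isl1 (-3.15), Tbx4 (-2.93), Aldh1a2 (-2.19), Wnt2 (-2.17), Hoxc9 (-1.96), Hoxb9 (-1.60) and Rarb (-1.09). Without forelimb replicate 4 and hindlimb replicate 3, the differences of Gsc (0.62), Osr1 (0.95), Osr2 (0.94) and Cyp26b1 (0.99) were no longer called.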

How the results depend on the processing

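With 2 whole-embryo arrays, array set and tissue confounded at E10.5 and no depth for arrays beyond signal over background, counts moved more than directions. Of 286 gene differences named, 254 kept their direction and call after quantile normalization, and none reversed. In a fit of the 11 arrays of E10.5 alone 260 kept their call. That fit leaves every fold change as it was, so that no direction could reverse in it. Quantile normalization gave 1158 genes up in both limbs (their average, here and below), 1195 in forelimb and 1158 in hindlimb. It gave 229 genes up at E9.5, 67 up with agreeing probe sets, and 2716 probe sets down against 1745. The 11 arrays alone gave 40 genes higher and 9 lower in forelimb than in hindlimb. They ended the calls over both limbs of Acta1, Actc1, Aldh1a2, Ednrb, Fgfr3, Fst, Hoxa13, Hoxd3, Lin28a, Myf6, Pax6 and Wt1, with adjusted p values of 0.00102 (Fgfr3) to 0.0214 (Fst), at the same fold changes. The brightest probe set per gene gave 962 genes down in hindlimb and 120 higher in forelimb than in hindlimb. It reversed Taf15 (-1.31), Ibtk (-1.01), Ide (-0.40), Msn (-0.24), Grb10 (-0.20), Epha4 (-0.15), Rdx (-0.15), Igfbp4 (-0.0226) and Rps9 (1.23), by construction the value of 1 probe set. It also ended the calls of Cenpe (0.565), Cfl1 (0.26), Ctnnb1 (0.16), Ets1 (0.04), Fgfr1 (0.90), Gas1 (0.91), Igfbp3 (0.33), Jag1 (0.82), Kif11 (0.83), Lef1 (0.97), Lin28a (1.28), Meox2 (0.90), Pax1 (-1.07), Pax6 (-0.79), Phf6 (0.76), Pitx1 (0.58), Ret (-0.64), Sall1 (0.25), Sema3a (0.98), Trp63 (0.76), Wnt5a (0.55), Wnt6 (0.85) and Zfhx4 (0.25), and called Etv4 (2.19), Msx2 (1.63), Sox10 (-1.50), Gata4 (-1.48), Ptch1 (-1.14) and Hnf4a (-1.06). Probe sets without an x, s or a suffix gave 27 agreeing genes down and reversed Srsf2 (-1.84), Tmsb10 (-0.73), Rdx (-0.15), Fgfr1 (-0.0693) and Tnnt2 (0.0251). They also ended the calls of Ets1 (0.34), Hoxa10 (0.71), Ide (0.66), Igfbp3 (0.33), Lef1 (0.97) and Osr2 (0.47). The calls of Rps9 (-0.94), Sec61a1 (0.77), Tbx3 (0.73), Trp63 (0.27) and Wnt6 (0.85) ended too, as did that of Osr2 between the limbs (0.15). C1qb (1.15) and Meis1 (-1.26) were called there. Array weights gave 50 genes up and 52 down at E9.5, and the cause was not tested. An adjusted p under 0.05 with no minimum fold passed 6385 genes up and 4344 down in both limbs, 6374 and 4491 in forelimb, 6021 and 3722 in hindlimb, 1445 higher and 1106 lower in forelimb than in hindlimb, 4526 and 1429 at E9.5, 11741 and 8307 probe sets, and 819 and 277 agreeing genes. A filter on genes of low signal or leaving out the 2 arrays of conflicting labels changed no call of a named gene. With each array left out in turn, genes up in both limbs numbered 1613 to 2031 and down 577 to 642, in forelimb 1680 to 2110 and 585 to 670, in hindlimb 1586 to 1974 and 573 to 662, between the limbs 64 to 93 and 23 to 31, probe sets 4436 to 5135 and 1618 to 1775, agreeing genes 96 to 175 and 43 to 49, and E9.5 genes 368 to 385 and 291 to 299. Without whole embryo replicate 1, Crabp1 (0.85), Dcn (-0.99), Dct (-1.71), Ednrb (-1.42), Fgfr1 (0.79), Fst (-1.14), Hes1 (0.79), Igfbp3 (0.91), Igfbp4 (0.77), Mab21l2 (1.77), Pax6 (-0.91), Pitx1 (0.85), Plvap (0.80), Sall1 (0.96), Wnt1 (-1.28), Wnt5a (0.94) and Wnt6 (0.95) lost their call. Without whole embryo replicate 2, Acta1 (-2.39), Alb (-1.69), Aldh1a2 (-1.57), Dct (-1.55), Ednrb (-1.40), Ephb1 (-1.02), Hoxb5 (-1.38), Meox2 (0.93), Myf6 (-1.35), Pax1 (-0.92), Taf15 (1.18) and Wt1 (-1.58) did. Leaving out forelimb replicate 4 and hindlimb replicate 3 together was chosen after seeing the data and ended 5 calls of named differences. Whether arrays of the same replicate number share an embryo is not known. Deviations of same-numbered arrays correlated at -0.03 to 0.04 between forelimb and hindlimb. They correlated at -0.10 to -0.08 between forelimb and whole embryo and at -0.02 to 0.08 between hindlimb and whole embryo. These values cannot decide it, and the deviations of the 2 whole-embryo arrays mirror each other by construction. With the number as a replicate block, 1807 genes were up and 608 down in both limbs, and no call of a named gene changed.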
